A study of Homo sapiens with 4 samples.

Results

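Described here are 2288 accessible regions that were listed in every library except shARID1A DMSO. They were found by merging the peaks of 4 ATAC-seq lists wherever peaks shared a base, which gave 69838 regions, and keeping those with a peak in shControl DMSO, shControl rapamycin and shARID1A rapamycin but none in shARID1A DMSO. The regions were chosen by the presence and absence of peaks in these same lists, so their absence is a description and not a finding. All 4 groups were cells of Huh7, a human hepatocellular carcinoma line in long use, grown in DMEM with 10% fetal bovine serum. The shControl cells carried a control short hairpin RNA and received DMSO or 100 nM rapamycin for 6 h. The shARID1A cells carried a hairpin against ARID1A and received the same treatments, and each group was 1 library made from nuclei of 50000 cells. The labels give neither the residual ARID1A level nor whether a line was 1 clone, and RNA and protein were not analysed here. The read depth behind the lists is unknown. With 1 library per group, the spread between cultures is unknown, and no p-value was computed.

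ATAC-seq uses a transposase that inserts adapters into open DNA, so a peak marks chromatin that is accessible in many cells. ARID1A is a subunit that defines BAF, a SWI/SNF remodelling complex that moves or evicts nucleosomes and acts in particular at distal enhancers. Rapamycin inhibits mTORC1, a kinase complex that couples growth factors and nutrients to protein and lipid synthesis. In a bulk library, a lower peak in every cell and an open region in fewer cells cannot be told apart. Cell identity was checked at promoters, where a region of all 4 lists lay no more than 1 kb from the transcription start site (TSS): 15 of 34 hepatocyte genes had one as the nearest gene, against 3 of 14 leukocyte, 1 of 12 endothelial, 2 of 12 stellate cell or fibroblast and 4 of 12 neuron markers.

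The deposited peaks carry numbers that follow genome order, and the shARID1A DMSO list skips 6666 numbers between 1 and 52366 while holding 45700 peaks. The skipped numbers fall into 5211 intervals, of which 4116 lack a single number and the fullest lacks 9. The labels and file headers do not say what they stood for. Of the 2288 regions, 1319 lay between neighbouring shARID1A DMSO peaks whose numbers skip (57.6%, exact binomial 95% interval 55.6 to 59.7; these intervals, here and for every share given later, cover counting error only). The other 969 lay where no number is skipped, 1 of them beyond the outermost peak of a chromosome. A region at a skipped number may have had a peak that is not in the list, and its absence therefore cannot be told apart from a missing row. The 969 are the regions for which the list itself shows no room for a missing row.

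To show what the promoters of these regions look like, RefSeq sequence (GRCh38.p14) of the 250 bases upstream of the annotated start is printed for 6 protein-coding genes, chosen as the best-ranked promoter regions that cover at least 100 of these bases and share the symbol of the authors' nearest gene. Capitals mark matches, on either strand, to the motifs searched. TGANTCA was searched for the AP-1 family, GGAATG for TEAD factors, TGTTTAC for FOXA factors and TTGCGCAA for CEBP factors. CCGGAAG was searched for the ETS family, GGGCGG for the SP and KLF family, CCAAT for the factor that binds this box, and TGACGTCA for CREB, beside fixed words for NRF1 and YY1. Sequences run 5′ to 3′ along the gene. The first 3 genes were at no skipped number.
C6orf47: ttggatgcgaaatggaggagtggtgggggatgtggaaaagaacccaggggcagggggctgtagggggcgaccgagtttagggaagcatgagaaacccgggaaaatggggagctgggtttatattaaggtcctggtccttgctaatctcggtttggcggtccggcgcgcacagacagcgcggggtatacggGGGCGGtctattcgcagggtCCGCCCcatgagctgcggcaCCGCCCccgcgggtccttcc
ALK: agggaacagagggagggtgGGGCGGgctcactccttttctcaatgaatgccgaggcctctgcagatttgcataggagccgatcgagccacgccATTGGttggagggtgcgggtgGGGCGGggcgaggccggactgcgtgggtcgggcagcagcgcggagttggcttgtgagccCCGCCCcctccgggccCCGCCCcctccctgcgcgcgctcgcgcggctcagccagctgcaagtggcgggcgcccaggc
CDHR3: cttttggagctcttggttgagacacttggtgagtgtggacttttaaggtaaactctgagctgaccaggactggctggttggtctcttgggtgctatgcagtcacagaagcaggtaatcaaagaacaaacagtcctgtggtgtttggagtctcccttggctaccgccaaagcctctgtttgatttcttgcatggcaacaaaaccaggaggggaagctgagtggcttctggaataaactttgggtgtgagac
The next 3 were at skipped numbers.
GBP1: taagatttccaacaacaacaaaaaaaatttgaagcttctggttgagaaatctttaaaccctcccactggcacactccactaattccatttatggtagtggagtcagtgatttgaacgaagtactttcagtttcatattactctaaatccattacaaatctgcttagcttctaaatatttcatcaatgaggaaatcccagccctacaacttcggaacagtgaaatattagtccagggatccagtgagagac
TLR3: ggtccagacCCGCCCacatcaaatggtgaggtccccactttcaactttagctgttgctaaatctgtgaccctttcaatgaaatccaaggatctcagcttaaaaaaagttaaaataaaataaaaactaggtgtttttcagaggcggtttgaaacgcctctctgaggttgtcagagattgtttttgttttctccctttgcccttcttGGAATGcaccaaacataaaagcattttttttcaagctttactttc
M1AP: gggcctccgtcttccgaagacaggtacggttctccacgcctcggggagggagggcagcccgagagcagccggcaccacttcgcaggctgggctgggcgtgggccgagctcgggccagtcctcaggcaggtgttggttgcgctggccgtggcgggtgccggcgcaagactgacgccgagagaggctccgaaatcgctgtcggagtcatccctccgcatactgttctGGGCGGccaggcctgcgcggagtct

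These windows lie at chr6:31660779-31661028, minus strand (C6orf47), chr2:29921587-29921836, minus strand (ALK), chr7:105963014-105963263, plus strand (CDHR3), chr1:89065209-89065458, minus strand (GBP1), chr4:186068906-186069155, plus strand (TLR3) and chr2:74648038-74648287, minus strand (M1AP). ALK encodes a receptor tyrosine kinase, CDHR3 a cadherin-related membrane protein, GBP1 an interferon-inducible GTPase, TLR3 a receptor for double-stranded RNA, and M1AP a protein of meiosis. CpG-rich and CpG-poor promoters occurred in both kinds: ALK, M1AP and C6orf47 held 24, 25 and 19 CpG dinucleotides in 250 bases, and CDHR3, GBP1 and TLR3 held 1, 2 and 3.

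**Figure D1:**
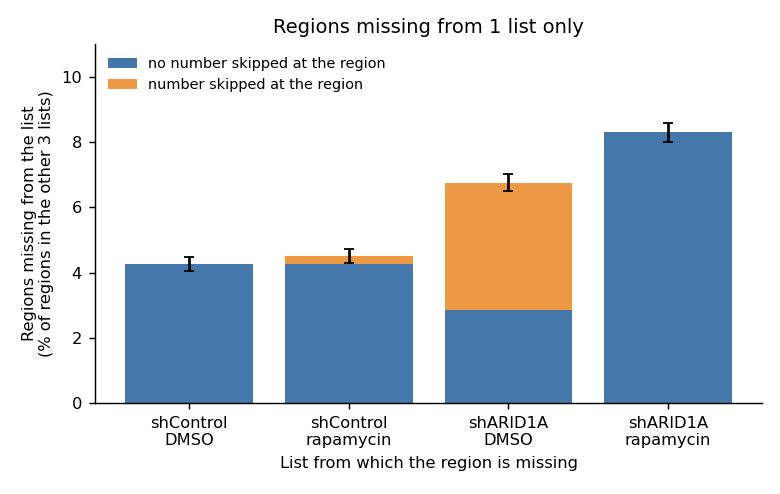
Regions missing from a single list, in percent of the regions present in the other 3 lists (vertical axis), for each list (horizontal axis), with the part that lies at a skipped number in orange and exact binomial 95% intervals on the total. The shARID1A DMSO bar reaches 6.75%, of which 2.86% lies at no skipped number.

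Of 33873 regions present in the other 3 lists, 6.75% were absent from shARID1A DMSO. The same count for the other lists was 4.26% for shControl DMSO (1406 of 32991), 4.50% for shControl rapamycin (1487 of 33072) and 8.30% for shARID1A rapamycin (2857 of 34442). Both shARID1A lists thus lacked a larger share than both shControl lists when skipped numbers were ignored. Counting only regions at no skipped number, the share was 2.86% for shARID1A DMSO, 4.26% for shControl DMSO, 4.26% for shControl rapamycin and 8.30% for shARID1A rapamycin. On this count shARID1A DMSO had the lowest share of the 4 lists. The count drops every region at a skipped number, whether or not a skipped number stood for it. It can drop nothing from shControl DMSO and shARID1A rapamycin, whose numbers have no break. Its denominator also keeps regions in intervals with a skip, and over the 28813 regions in intervals without a skip the share was 3.36%. With equal numbers of top-ranked peaks taken from every list, and skipped numbers ignored, the shares of the DMSO lists were 5.91% for shARID1A and 5.63% for shControl. Those of the rapamycin lists were 6.97% for shARID1A and 4.57% for shControl. Giving each skipped number to 1 missing region of its interval would fill at most 1273 of the 2288 and leave 1015. If regions absent from shARID1A DMSO but outside this set took the skipped numbers before them, 529 would be filled.

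Regions missing only in shARID1A DMSO were concentrated in intervals with skipped numbers. Such an interval held a region in 22.8% of 5206 cases (21.6 to 23.9), against 2.33% of 40470 intervals without a skip (2.19 to 2.48). Longer intervals held a region more often in both classes, so the shares were also compared at like length. Within the class of 30 to 100 kb the shares were 19.8% of 2010 (18.1 to 21.6) and 3.86% of 10948 (3.51 to 4.24), and from 10 to 30 kb they were 12.4% of 445 (9.45 to 15.8) and 1.90% of 14060 (1.68 to 2.14). Without matching for length, per 100 intervals there were 2.39 regions with 0 skipped numbers, 19.8 with 1, 40.1 with 2, 57.6 with 3 and 84.9 with 4 or more. Other regions absent from shARID1A DMSO were more numerous and rose alongside, at 35, 130, 229, 304 and 415 per 100 intervals. In 1140 of the 1186 intervals with skips that held regions missing only in shARID1A DMSO, these regions did not outnumber the skipped numbers, and in 775 both counts were equal. The 1186 intervals held 1319 such regions in all, so most held 1 and met the first condition by definition. Other absent regions were left out of these counts.

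**Figure D2:**
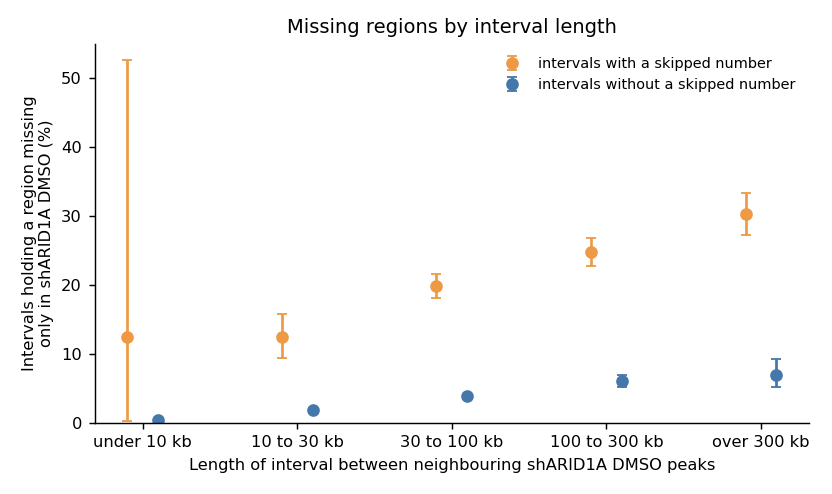
Share of intervals between neighbouring shARID1A DMSO peaks that hold a region missing only in that list (vertical axis, percent), by interval length (horizontal axis), with exact binomial 95% intervals. Points of intervals with a skipped number lie above those without at every length, and the class under 10 kb holds only 8 intervals with a skip.

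The deposited scores show what kind of peak is thin in the shARID1A DMSO list. In every list some scores are shared by 100 or more peaks, on a ladder of steps, and these peaks are narrow and mostly distal. In shControl DMSO 14.8% of peaks carry a shared score, their median width is 442 bp against 738 bp for the others, and 5.80% of them lie within 1 kb of a TSS against 28.3%. The lowest shared score is 1.79 in shControl DMSO (395 peaks), 2.62 in shControl rapamycin (329 peaks), 1.84 in shARID1A rapamycin (375 peaks) and 6.39 in shARID1A DMSO (510 peaks). Below 6.39, shared scores account for 5737 of 16162 shControl DMSO peaks, 4376 of 14786 shControl rapamycin peaks, 4722 of 14857 shARID1A rapamycin peaks and 0 of 10140 shARID1A DMSO peaks. In that last list, no score below 6.39 is held by more than 56 peaks. The shARID1A DMSO list therefore holds peaks of low score but lacks steps of 100 or more peaks below 6.39. The scale of the score is not stated and may differ between lists, and the part of these steps in the skipped numbers was not tested.

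**Figure D3:**
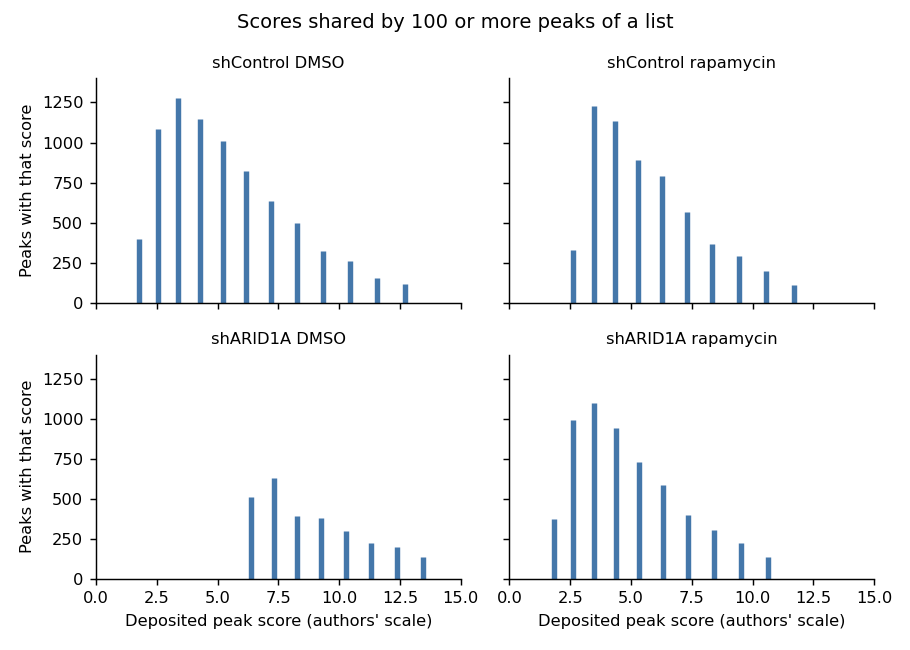
Number of peaks (vertical axis) at each score shared by 100 or more peaks (horizontal axis, the authors' scale), 1 panel per list. The lowest step is 6.39 in the shARID1A DMSO panel and between 1.79 and 2.62 in the other panels.

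Regions at a skipped number carried such scores in the other libraries more often than regions at no skipped number. In shControl DMSO 42.3% of the 1319 had a shared score (39.6 to 45.0) against 16.4% of the 969 (14.1 to 18.9), and in shControl rapamycin 41.2% against 14.9%. In shARID1A rapamycin the shares were 60.1% (57.4 to 62.8) and 27.7% (24.9 to 30.6). Among regions in all 4 lists the share in shControl DMSO was 3.33%, and 11.9% among those in the weaker 50% of that list. The shControl rapamycin list, which skips 1093 numbers, gave the same contrast in regions missing only from it: 45.5% of the 77 at a skipped number had a shared score in shControl DMSO (34.1 to 57.2), against 16.7% of the 1410 others (14.8 to 18.8). Regions missing only from shARID1A rapamycin, whose numbers have no break, had a shared score in shControl DMSO in 12.5% of cases. In shARID1A rapamycin, the 27.7% of the 969 stood above both the 13.2% of regions missing only from shControl DMSO (11.5 to 15.1), another list without breaks, and the 14.1% of regions missing only from shControl rapamycin at no skipped number (12.3 to 16.0). These sets were not matched for score. The median rank by score in shARID1A rapamycin was 79.3 percent of list length for the 969, a higher value being weaker. It was 67.1 for regions missing only from shControl DMSO and 69.2 for all those missing only from shControl rapamycin. The part of rank in this difference was not tested.

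Peaks of the 2288 regions were weak in the libraries that listed them. Peaks were ranked by score within a list and ranks are given in percent of list length, 0 being the strongest. The median rank was 64.6 in the shControl DMSO list, 68.6 with rapamycin in shControl cells and 77.5 in shARID1A rapamycin, against 30.8, 32.1 and 35.8 for the 31585 regions in all 4 lists. Regions at a skipped number had medians of 64.6, 67.5 and 75.1, and those at no skipped number 67.9, 69.7 and 79.3, so rank set both kinds apart from the regions in all lists and barely from each other. Only 43 regions (1.88%) ranked in the stronger 50% of all 3 lists, 26 of them at no skipped number, while 1605 (70.1%) ranked in the weaker 50% of all 3. Regions missing only from another list also rarely ranked in the stronger 50% of every list that held them. Their shares were 5.55% for those missing from shControl DMSO, 6.32% from shControl rapamycin and 4.69% from shARID1A rapamycin. None of the 5217 regions within the best 10% of shControl DMSO was missing only in shARID1A DMSO. The share missing was 0.0771% of 5186 regions ranked from 10 to 20 percent and 30.2% of 582 ranked from 90 to 100. At no skipped number, it was 0.0771% and 16.3% in these classes.

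**Figure D4:**
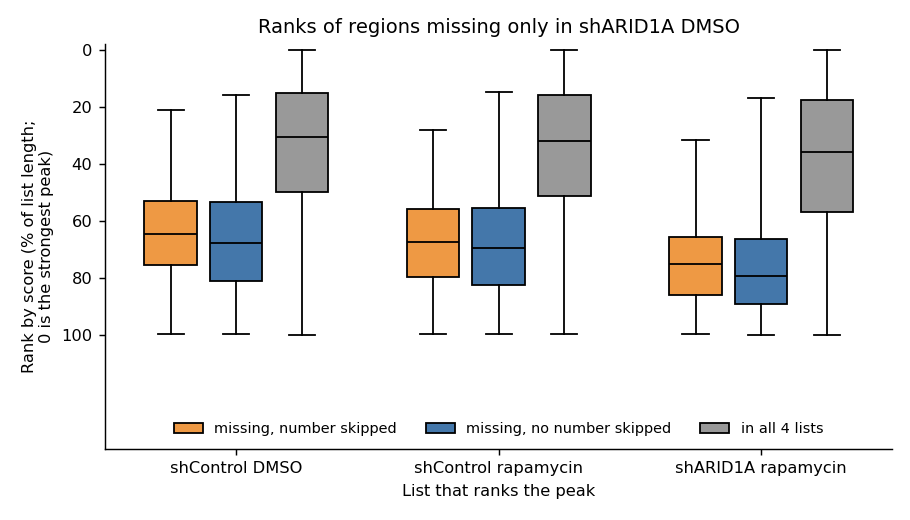
Percent rank by score (vertical axis, 0 is the strongest peak) in each of the 3 lists that hold the regions (horizontal axis), with boxes from quartile 1 to quartile 3, a line at the median and whiskers from lowest to highest. Boxes of both kinds of missing regions lie below those of the 31585 regions in all 4 lists, lowest in shARID1A rapamycin.

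The median rank of the regions was weaker in shARID1A rapamycin, the other knockdown library, than in either shControl list. Its percent rank was the weakest of the 3 in 54.4% of the 2288 (52.3 to 56.5), compared with 47.6% of regions in all 4 lists (47.1 to 48.2). Regions missing only from shARID1A rapamycin had median ranks of 63.7 in shControl DMSO, 67.5 in shControl rapamycin and 75.4 in shARID1A DMSO. Regions missing only from a shControl list had closer medians, of 70.8, 70.4 and 67.1 in shControl rapamycin, shARID1A DMSO and shARID1A rapamycin for those missing from shControl DMSO, and 69.3, 70.1 and 69.2 in shControl DMSO, shARID1A DMSO and shARID1A rapamycin for those missing from shControl rapamycin. Percent ranks in shARID1A DMSO are counted over a list with skipped numbers. The lists differ in length, with 52192 peaks in shControl DMSO, 49783 in shControl rapamycin and 44760 in shARID1A rapamycin, and regions in all 4 lists also had their weakest median in shARID1A rapamycin, at 35.8. The part of list length in these ranks was not tested.

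Most of the regions lay away from promoters. In shControl DMSO, 125 of 2288 (5.46%) had their peak within 1 kb of a TSS by the authors' distance, 68 at a skipped number and 57 at none. Regions in all 4 lists were promoters in 36.8% of cases, and those of them in the weaker 50% of shControl DMSO in 17.9%, against 5.13% and 5.90% of missing regions of that rank with and without a skip. Regions missing only from shControl DMSO, shControl rapamycin and shARID1A rapamycin held promoters in 15.5% (13.7 to 17.5), 11.2% (9.67 to 12.9) and 7.81% (6.85 to 8.85), all above the 5.46% here (4.57 to 6.47). At no skipped number the promoter share here was 5.88% (4.49 to 7.55). That interval overlaps the interval of regions missing only from shARID1A rapamycin. Stated per region present in the other 3 lists, 9.77% of 22128 distal and 1.06% of 11745 promoter regions were missing only in shARID1A DMSO. At no skipped number these shares were 4.12% and 0.485%, so the distal excess was present there too.

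Introns held 50% of the regions (1145) and intergenic sequence 40.3%, against 35.6% and 24.4% of regions in all 4 lists. Regions at a skipped number were more often intergenic, at 43.6% (40.9 to 46.3) compared with 35.9% at none (32.9 to 39.0), and lay farther from genes. Their median distance to a TSS was 27634 bp against 16181 bp, 14.6% against 4.95% lay more than 100 kb from any TSS, and the median number of protein-coding genes within 500 kb was 5 against 9, the latter equal to that of regions in all 4 lists. The nearest shARID1A DMSO peak was a median of 30810 bp away at a skipped number and 10346 bp at none. The intervals themselves had a median length of 147047 bp at a skipped number and 48016 bp at none, and the part of this length in these differences was not tested. Merged regions had a median width of 798 bp, against 1117 bp for regions in all 4 lists.

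**Figure D5:**
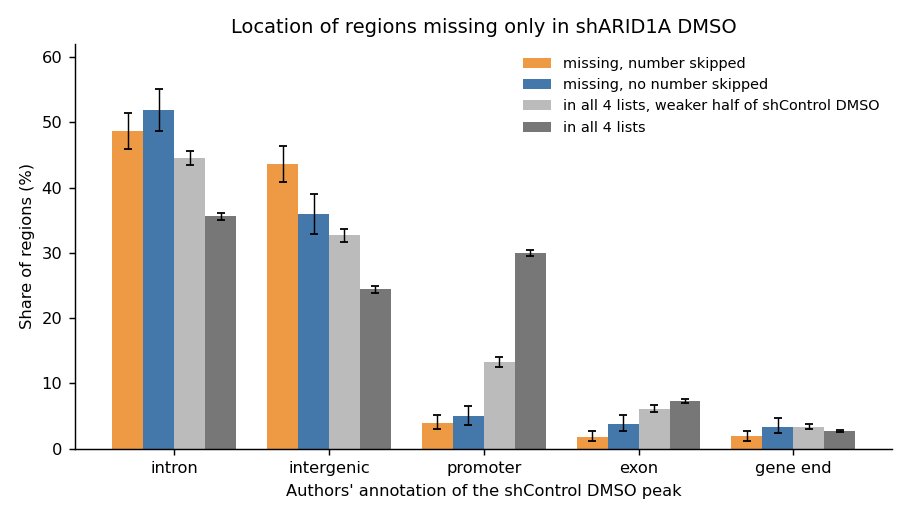
Share of regions by the authors' annotation of the shControl DMSO peak (vertical axis, percent; annotation classes on the horizontal axis), with exact binomial 95% intervals. Missing regions are more often intronic or intergenic and less often at promoters than regions in all 4 lists, also those in the weaker 50% of shControl DMSO.

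Across chromosomes, the share of regions missing only in shARID1A DMSO ran from 2.84% on gene-rich chromosome 19 (41 of 1446) to 9.41% on chromosome 18 (62 of 659), with 9.38% on chromosome 13 and 9.07% on chromosome 4, leaving out chromosome Y with 5 regions. Most of that range came from regions at a skipped number, whose share went from 1.28% on chromosome 20 to 6.52% on chromosome 13. At no skipped number the share went from 1.52% on chromosome 19 to 3.95% on chromosome 20. Chromosome 20 therefore had the lowest share of the one kind and the highest of the other. The regions were mostly solitary, and 11.7% had another within 50 kb.

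The strongest regions at no skipped number included peaks annotated to the promoters of UBE2V1 and SUN1. UBE2V1 encodes a ubiquitin-conjugating enzyme variant, and its region (chromosome 20, 50115609 to 50116165) ranked at 16.0, 14.8 and 20.4 percent in shControl DMSO, shControl rapamycin and shARID1A rapamycin. SUN1 encodes an inner nuclear membrane protein that links the nucleus to the cytoskeleton, and its region (chromosome 7, 815796 to 816676) ranked at 18.2, 19.8 and 17.0 percent. Both peaks were thus in the best 25% of every list that held them. They lay 2014 and 499 bp from the nearest shARID1A DMSO peak, and by the authors' distance -2770 and -16012 bp from the TSS, so neither counted as a promoter above.

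The next 4 regions at no skipped number were distal. A region in intron 3 of SVIL, encoding the actin-binding protein supervillin (chromosome 10, 29621224 to 29621701), ranked at 27.3, 28.4 and 30 percent in the same order. A region in intron 8 of GYS1, encoding muscle glycogen synthase, had FTL, encoding the ferritin light chain, as its nearest TSS (chromosome 19, 48978607 to 48979355) and ranked at 27.7, 28.9 and 33.8 percent. The SVIL and GYS1 regions thus ranked alike in all 3 lists. Intergenic regions near AC008155.2 (chromosome 7, 138328154 to 138328832) and LINC01339 (chromosome 5, 90293895 to 90294399) were less even, at 23.1, 18.4 and 39.6 percent and at 15.9, 35.5 and 31.1 percent.

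The strongest regions at a skipped number were all distal. The best lay in intron 9 of MOXD1, which encodes a monooxygenase-like protein (chromosome 6, 132314213 to 132315213), in an interval that skips 3 numbers, and ranked at 24.5, 32.2 and 33.3 percent. A region in intron 2 of SOX5, encoding an SRY-related transcription factor (chromosome 12, 23858723 to 23860163, 2 skipped numbers), ranked at 21.9, 34.0 and 57.2 percent. A region in intron 6 of LANCL2 (chromosome 7, 55420517 to 55421380, 1 skipped number) ranked at 21.8, 41.5 and 50.8 percent. Each of these ranked best in shControl DMSO and weakest in shARID1A rapamycin. The other 3 were intergenic, on chromosomes 3, 10 and 22.

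Among the 57 promoters at no skipped number the best ranked were those of MAST3, a microtubule-associated kinase (36.5, 53.7 and 34.9 percent), C6orf47 (40.1, 38.5 and 47.1), AL133375.1, AC008592.1 and AC096637.2, and UCK2, a kinase of uridine and cytidine salvage (43.3, 45.2 and 66.7). The MAST3 peak lay 51 bp and the UCK2 peak -238 bp from the TSS. Of the 68 promoters at a skipped number the best ranked belonged to AC023050.2, RNU6-653P and FOXP1, a forkhead transcription factor (chromosome 3, 71305153 to 71306118; 48.4, 57.0 and 43.5 percent), followed by AF015262.1, RN7SKP179 and AP002383.2. Where the nearest gene matched RefSeq by symbol it was protein-coding in 41.4% of 790 regions at a skipped number, 59.1% of 626 at none and 70.7% of 22624 regions in all 4 lists.

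Of the genes whose promoter sequence is shown above, the ALK region ranked at 48.7, 41.3 and 70.2 percent in shControl DMSO, shControl rapamycin and shARID1A rapamycin, and that of CDHR3 at 48.3, 75 and 58.2. The GBP1 region ranked at 41.2, 78.6 and 49.2 percent, TLR3 at 59.9, 76.8 and 58.0, and M1AP at 55.8, 80.8 and 66.2. All 4 of CDHR3, GBP1, TLR3 and M1AP were weakest in shControl rapamycin, whereas ALK and C6orf47 were weakest in shARID1A rapamycin.

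Promoters of these regions were poorer in CpG than open promoters in general. The 72 RefSeq windows of which at least 100 upstream bases lay in a region had a median GC content of 50.8% and a median of 5 CpG, against 66.0% and 22 for 15025 windows in regions of all 4 lists and 58.0% and 11 for all 34943 windows. Of the 72 windows, the 47 in regions at a skipped number had medians of 48.4% GC and 4 CpG. The 25 at no skipped number had 54.4% and 7. Motif shares below pool both kinds. Windows of regions missing only from shControl DMSO, shControl rapamycin and shARID1A rapamycin had medians of 17, 11 and 13 CpG. The TEAD motif GGAATG was found in 23.6% of the 72 (14.4 to 35.1), compared with 11.9% of all windows and 16.8% of 7141 windows within 5 points of the same GC content, which lies inside the interval. The AP-1 motif TGANTCA was found in 13.9% (6.87 to 24.1), compared with 6.59% and 9.62%. The SP/KLF motif GGGCGG, found in 69.1% of windows in regions of all 4 lists, was found in 27.8% (17.9 to 39.6). At like GC content the SP/KLF share was 18.3% of all 7141 windows and 33.0% of 1891 windows in regions of all 4 lists. Both values lie inside the interval. The ETS motif CCGGAAG was found in 2.78% (0.338 to 9.68) against 15.9% in regions of all 4 lists, and at like GC content in 5.77% of all windows, inside the interval, and 14.2% of those in regions of all 4 lists, above it. With 72 windows, the shares of TEAD, AP-1 and SP/KLF motifs could not be told from those at like GC content.

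Few of the regions lay near genes of 13 fixed lists covering 275 genes. A list gene was the nearest gene of 7 of the 2288 regions, or 1.99% of the 351 regions in the other 3 lists with such a nearest gene (0.805 to 4.07), where the background was 6.75%. Among distal regions alone the share was 3.59% of 195 (1.46 to 7.26), against 9.77% of all distal regions. By nearest gene, hepatocyte genes had 0 of 47 regions in the other 3 lists, lysosome and autophagy genes 0 of 28 and SWI/SNF subunit genes 0 of 25. Markers of endothelium had 0 of 6, of stellate cells or fibroblasts 0 of 8 and of neurons 0 of 13. With so few regions per list and a background of 6.75%, a count of 0 does not show that a list was spared. None of the 7 was a promoter. Those at no skipped number included regions near TGFBR2, a receptor for TGF-beta (chromosome 3, 30578317 to 30579022; 45.9, 45.9 and 77.8), MYOF, a YAP/TEAD target in membrane repair (chromosome 10, 93470822 to 93471505; 57.7, 60.1 and 67.0), the T cell marker CD3D (73.6, 95.5 and 89.1) and KLF6, an immediate early transcription factor (85.3, 85.6 and 98.1). The TGFBR2 region ranked clearly weaker in shARID1A rapamycin than in the shControl lists, and the KLF6 region was close to the bottom of that list. The 2 at skipped numbers were near PSAT1, an enzyme of serine synthesis (53.8, 58.1 and 62 percent), 72549 bp from its TSS, and CDK6, a cell-cycle kinase (75.5, 94.2 and 91.2).

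Counted by the gene in which the authors' annotation places the peak, 16 regions lay in list genes. They were 4.05% of the 395 regions of the other 3 lists in these genes (2.33 to 6.49). The share over all regions of those lists, inside genes or not, was 6.75%. Of the genes of epithelial-mesenchymal transition, ZEB1 held 1 and ZEB2 held 2, all at skipped numbers, and CDH2, encoding N-cadherin, held 1 at none. ZEB1 and ZEB2 encode repressors of E-cadherin. The ZEB1 region (chromosome 10, 31483140 to 31485335, intron 2) ranked at 43.2, 62.8 and 62 percent. MTOR itself, the kinase that rapamycin inhibits, held a region at no skipped number in intron 9 (chromosome 1, 11241490 to 11242301), which ranked at 72.3 and 78.7 percent in the shControl lists and at 40.3 percent in shARID1A rapamycin. Its best rank was thus in the knockdown library. WWTR1, encoding TAZ, the paralog of YAP, and the autophagy gene ATG5 held 1 and 2 at skipped numbers. PROX1, a hepatocyte transcription factor, held 1 in exon 5 at no skipped number (79.8, 82.5 and 91.7 percent). The SWI/SNF subunit gene BCL7C, the endothelial marker ERG and the stellate cell or fibroblast marker RGS5 each held 1 in an intron, at skipped numbers.

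No locus gathered many of the regions. They had 2144 different nearest genes, of which 2009 were nearest to 1 region, 128 to 2 and 7 to 3 or more, and no gene was nearest to 3 at no skipped number. By gene body, 15 genes held 3 or more. SVIL held 4 of the 10 regions that the other 3 lists share in it, 2 of them at skipped numbers. AFF1, encoding a subunit of the super elongation complex, held 3 of 6, the only gene with 3 at no skipped number. PTPRK, a receptor tyrosine phosphatase, held 3 of 7 and SOX5 held 3 of 14, all at skipped numbers. The rule's edge was sparsely filled: 9 of the 2288 lay within 200 bp of a shARID1A DMSO peak, the closest at 2 bp near LINC00273, and among regions in all 4 lists 102 had strongest peaks in shARID1A DMSO and shControl DMSO that shared no base with each other and 27 had ones that shared 1 to 50 bases.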

How the data were processed

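Each of the 4 ATAC-seq peak lists belongs to 1 library, per the labels. The submitters' processing notes name BWA, MACS2 2.0 and GRCh38; settings, duplicate handling and depth are not given there. The score of each peak is the authors' deposited value on a scale that is not stated, and was used only to rank peaks within a list and to count equal scores. The distance to the TSS, annotation and nearest gene are the authors', per the file headers, and were taken from the strongest shControl DMSO peak of a region. Coordinates are as deposited.

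Peaks were merged and counted with pandas 2.3.3 and NumPy 2.4.6 under Python 3.11.15. Intervals came from SciPy 1.17.1, and plots were drawn with matplotlib 3.10.9. The code was tested on simulated lists. A region present in shARID1A DMSO was assigned to the interval after it. Shares have exact (Clopper-Pearson) 95% intervals. Named regions were, of each kind, the 6 with the lowest mean percent rank over 3 lists, the 6 such promoters and those nearest to list genes, of which 1 is not reported here. Regions and gene lists were chosen with earlier results of these data known. The counts of shared scores, of gene bodies and of CpG, the 100-base minimum and the printed sequences were chosen after seeing the data. Sequences outside RefSeq promoter windows were not used here.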

Additional observations from a re-analysis of the deposited data

How the results depend on the processing

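No paired analysis was possible because each group held 1 library. Of 39 alternative values, 21 stayed within the counting interval, or within 1.5 times a count, and 18 moved. This count did not check whether a contrast reversed. The number of regions ranged from 1919 to 2279. With equal numbers of top-ranked peaks from every list, the shares missing from a single list were 5.91% for shARID1A DMSO and 5.63% for shControl DMSO, so the shares of both DMSO lists came close. They were 6.97% for shARID1A rapamycin and 4.57% for shControl rapamycin. A score of at least 2 in the other 3 lists gave 6.45% for shARID1A DMSO and 3.14% of regions in intervals without a skip, against 3.36%. With intervals of at most 100 kb, 38.9% of the regions were at a skipped number, and the missing shares were 21.3% in intervals with a skip, against 26.1%, and 2.85% without. Skipped numbers could fill 529 regions in place of 1273 when other absent regions used them first. Promoter shares with and without a skip were 3.64% and 3.82% at 500 bp, 7.66% and 8.77% at 2 kb, and 4.02% with a skip by the authors' annotation. Median ranks with and without a skip were 67.5 and 69.7 in shControl rapamycin and 75.1 and 79.3 in shARID1A rapamycin. With scores shared by 50 or by 200 peaks, added after seeing the data, the contrast in shared scores held: 43.0% and 40.9% with a skip, 17.0% and 15.7% without. Read depth, which sets what a weak peak list can show, is unknown, and 1 library per group gives no replicate check.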
